A study of Arabidopsis thaliana with 111 samples.

Results

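Rupture of the testa, the outer seed coat, divides seeds of equal age into those that have passed the first visible step of germination and those that have not. This account compares the radicle of the 2 classes in Arabidopsis thaliana at 25 h after sowing, on 8 of the 111 arrays of the series. They are all the arrays whose titles name the radicle at 25 h, 4 from seeds with a ruptured testa and 4 from seeds with an intact testa, chosen by title and not by any measured value. In the rest of the text these groups are called ruptured and intact.

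All seeds were wild type of the accession Col-0 (N60000), imbibed on 0.7% water agarose at 22 °C in continuous light, and the labels name no transgene or treatment. Seeds were cut by hand into 4 parts, of which RAD is the radicle together with the rest of the embryonic axis and MCE is the endosperm of the micropylar and chalazal ends. RAD was measured with Affymetrix arrays at stages between 1 and 38 h, and at 38 h seeds were again sorted, by rupture of the endosperm. Besides the 25 h radicles, use is made here of MCE at 25 h from ruptured and from intact seeds, of RAD at 38 h with ruptured and with intact endosperm, of RAD at 12, 16, 20 and 31 h, and of cotyledons at 31 h (4 arrays per group).

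In this species germination proceeds in steps: the testa splits, the living endosperm beneath it gives way over the radicle tip, and the radicle protrudes by cell elongation. Gibberellin promotes these steps and abscisic acid (ABA) restrains them, the first through the destruction of DELLA repressors and the second through kinases and transcription factors that also maintain the seed programme. Elongation needs the wall to yield and to be rebuilt, work done by expansins, xyloglucan endotransglucosylase/hydrolases (XTHs), arabinogalactan proteins and cellulose synthase.

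Values are log2 expression, so that a difference of 1 is 2-fold, and each difference is ruptured minus intact, with the standard error (SE) from limma. Means are given ± SD over 4 arrays. A gene is said to have risen or fallen where its adjusted p was under 0.05 over all 21313 loci. The array medians were 5.07 to 5.21 in ruptured and 5.11 to 5.19 in intact radicles, and the lowest correlation between arrays of a group was 0.9923 in ruptured and 0.9916 in intact radicles. No array of these 8 was described as redone for quality control. The sources do not say whether the 4 arrays of a group came from separate seed batches, and a p-value here speaks only of the spread among these arrays. In dissected tissue, fewer cells of a type and less RNA per cell cannot be told apart.

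The label of the tissue was checked against marker genes. The endosperm expansin EXPA2 averaged 4.77 ± 0.31 in ruptured and 4.87 ± 0.08 in intact radicles, against 14.14 in ruptured and 14.36 in intact MCE. Summed unlogged signal over 16 endosperm markers was 5035 to 5492 in ruptured and 6816 to 7675 in intact radicles, against 47831 to 60779 in ruptured and 56451 to 70524 in intact MCE. Of 25 root meristem and root cap markers, 10 lay below 4.03, the level that the highest group mean of 25% of the loci did not pass. In MCE, 18 lay below it in ruptured and 17 in intact seeds. The summed signal of the 25 was not higher in RAD than in MCE. It was 2017 to 2226 in ruptured and 1952 to 2086 in intact radicles. In MCE it was 2349 to 2597 in ruptured and 2965 to 3437 in intact seeds. Of 32 markers of root epidermis and root hairs, 18 lay below 4.03 in ruptured and 17 in intact radicles, including the root hair expansins EXPA7 and EXPA18. In both classes of MCE 24 did. Their summed signal was not higher in RAD either, at 2328 to 2505 in ruptured and 2131 to 2175 in intact radicles. In MCE it was 2577 to 3410 in ruptured and 2428 to 2932 in intact seeds.

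Testa rupture went with broad change in the radicle. Of 21313 loci, 1037 were higher and 1017 lower in ruptured radicles, which is 9.64% in all, 4.87% higher and 4.77% lower. At 2-fold or more (2.02%), rises outnumbered falls, with 307 higher (1.44%) and 123 lower (0.577%). Arrays of both groups did not overlap for 14.1% of the loci. The median over all loci was -0.03, so list medians near it show no shift. Counts of list members that rose or fell, given below, are likewise to be read beside the shares of 4.87% higher and 4.77% lower. These shares do not apply to counts at an unadjusted p under 0.05, a cut that more loci pass. The share of all loci at that cut is not given here, so those counts show only which way members leaned. The largest rises included structural proteins of the cell surface, nitrate reductase and an invertase, and the largest falls included seed maturation proteins, a germination repressor and a gibberellin 20-oxidase.

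The locus with the largest rise was AT1G29670, which carries no symbol in the table used here. It read 6.43, 6.87, 6.75 and 7.06 on the 4 ruptured arrays, against 3.24, 3.28, 3.1 and 2.94 on the 4 intact arrays, a difference of 3.64 ± 0.19 SE, adjusted p = 1.21e-28. Every ruptured array thus lay far above every intact array, and since all intact arrays were below 4.03 the fold of 12.5 rests on a level near the floor. FLA9, a fasciclin-like arabinogalactan protein of the cell surface, followed with 6.71, 7.08, 7.22 and 6.70 in ruptured and 4.04, 3.69, 3.43 and 3.72 in intact radicles. Its difference was 3.21 ± 0.19 SE, adjusted p = 1.53e-26, and the intact values were below the level of 4.03 on all arrays but replicate 1. AGP21, an arabinogalactan peptide, read 8.66, 8.64, 9.02 and 8.76 in ruptured and 6.35, 5.95, 5.61 and 5.39 in intact radicles (2.95 ± 0.27 SE, adjusted p = 2.9e-15). The spread was wider in intact than in ruptured radicles, and the groups stayed apart.

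NIA2, one of the nitrate reductases, read 7.19, 6.51, 6.40 and 7.62 in ruptured and 3.87, 4.29, 4.33 and 3.82 in intact radicles, 7.23-fold higher (2.85 ± 0.25 SE, adjusted p = 1.18e-16). ORS1, a small protein that promotes organ growth, read 7.93, 7.13, 7.80 and 7.16 in ruptured and 4.18, 4.78, 5.09 and 4.63 in intact radicles (2.84 ± 0.35 SE, adjusted p = 4.4e-10). ATBFRUCT1, a cell wall invertase that splits sucrose outside the cell, read 7.87, 8.30, 8.05 and 8.04 in ruptured and 5.35, 5.52, 5.60 and 4.80 in intact radicles (2.75 ± 0.22 SE, adjusted p = 2.29e-18). In all of these the lowest ruptured array exceeded the highest intact array, as the choice of these genes required. The other genes among the 12 largest rises were OCT3, an organic cation carrier (6.46-fold), XTH24 (5.74-fold), the SKU5-like wall protein sks9 (5.65-fold), and the loci AT3G49220 (6.21-fold), AT2G39210 (5.97-fold) and AT4G38410 (5.62-fold). The intact means of FLA9, sks9 and AT3G49220 were also below 4.03.

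Among the falls, SOM stood out for its regularity. SOM encodes a CCCH zinc finger protein that represses light-dependent germination by way of ABA and gibberellin metabolism. It read 6.02, 5.98, 5.96 and 6.02 in ruptured and 8.05, 8.28, 8.40 and 8.44 in intact radicles, a difference of -2.30 ± 0.20 SE, adjusted p = 2.94e-16. The ruptured arrays had an SD of 0.03 and lay far below all intact arrays. The embryo protein EM1 read 7.09, 5.56, 6.31 and 6.56 in ruptured and 8.40, 8.25, 8.55 and 8.39 in intact radicles (-2.02 ± 0.26 SE, adjusted p = 1.08e-09), with replicate spread mostly on the ruptured side. AIRP2, an E3 ubiquitin ligase of ABA signalling, read 4.73, 4.45, 4.89 and 4.80 in ruptured and 7.21, 6.67, 6.59 and 6.83 in intact radicles (-2.11 ± 0.22 SE, adjusted p = 5.29e-13). The other genes of this group were GA20OX1, described with the gibberellin genes, the peroxiredoxin PER1 (-2.14), UP6 (-2.11), the cystatin CYS2 (-2.04), a gene named LEA (-1.99) and the loci AT2G21820 (-2.59), AT5G07330 (-2.56), AT4G31830 (-2.24) and AT3G17520 (-2.21).

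**Figure D1:**
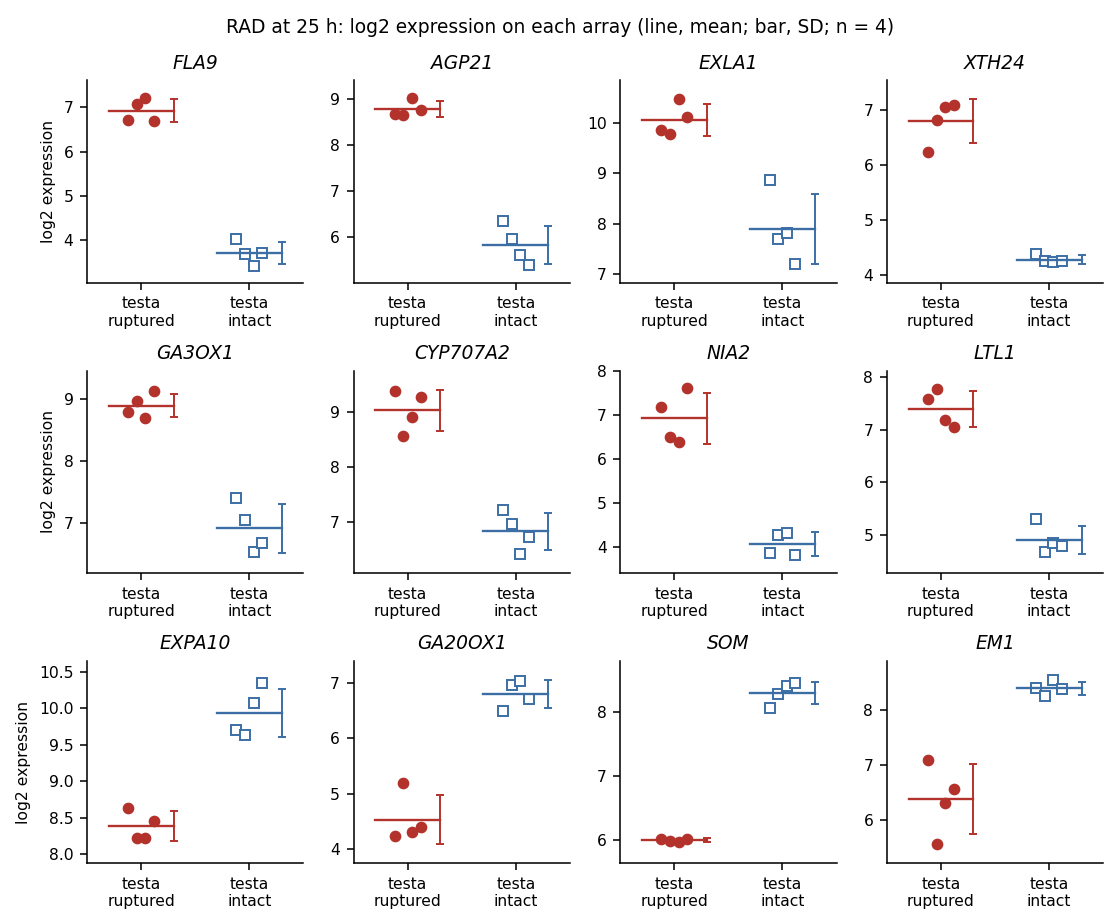
Log2 expression of 12 genes on each of the 8 arrays of RAD at 25 h, with filled circles for ruptured and open squares for intact testa, a line at the mean and a bar for the SD (n = 4 each); each panel has its own vertical scale that does not start at 0. FLA9, AGP21, EXLA1, XTH24, GA3OX1, CYP707A2, NIA2 and LTL1 lay higher and EXPA10, GA20OX1, SOM and EM1 lower on every ruptured array than on any intact array.

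How far the 2 classes had moved along the normal course of imbibition was measured on an axis that used no 25 h array. Each array was projected, over all loci, on the line from the mean of RAD at 20 h (score 0) to the mean of RAD at 31 h (score 1). Ruptured radicles scored 0.604, 0.641, 0.595 and 0.569, with a mean of 0.602 ± 0.030 (SD, n = 4), and intact radicles scored 0.297, 0.218, 0.203 and 0.209, with a mean of 0.232 ± 0.044 (SD, n = 4). The difference was 0.371 in an exact two-sided permutation test with p = 0.0286, the smallest value that 70 arrangements allow. Intact radicles were closer to the 20 h mean and ruptured radicles were past the midpoint of the axis. Arrays outside the axis kept their order, with means of -0.352 at 12 h, -0.165 at 16 h, 1.571 at 38 h with and 1.453 at 38 h without endosperm rupture.

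Single genes were read over the same interval. The comparison of 31 h with 20 h was added after the values were seen and shares no array with the rupture comparison; it called 33.6% of all loci, 15% higher and 18.5% lower. Of the 307 genes that rose 2-fold at rupture, 266 (86.6%) were higher at 31 h than at 20 h, 40 were not called and 1 was lower. Of the 123 that fell 2-fold, 111 (90.2%) were lower at 31 h, and 12 were not called. The 214 genes that rose 2-fold in both comparisons were 69.7% of the 2-fold rises at rupture and 20.4% of the 1049 loci (4.92%) that were 2-fold higher at 31 h than at 20 h.

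**Figure D2:**
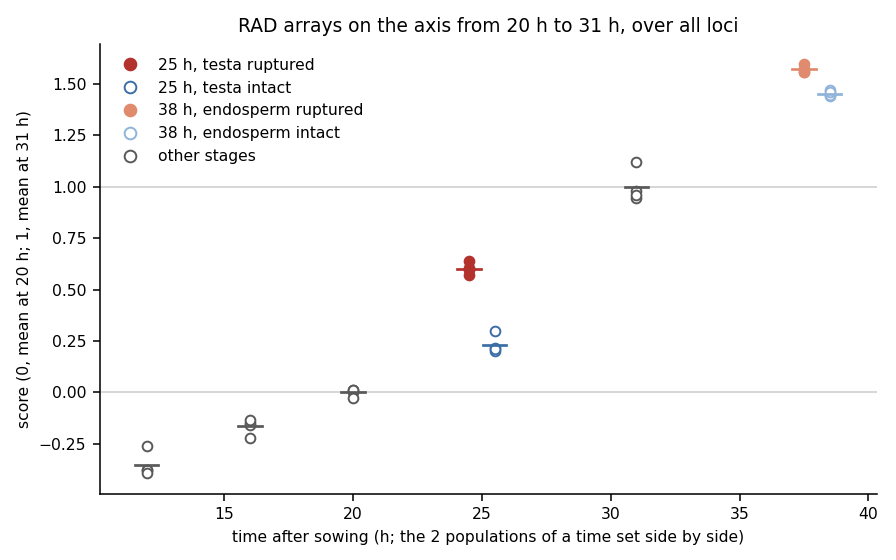
Score of each RAD array (circles; bars, group means, n = 4) on the axis from the 20 h mean (0) to the 31 h mean (1) over all loci, against hours after sowing, with the sorted classes of 25 h and of 38 h set side by side. At 25 h the 4 ruptured arrays lay between 0.569 and 0.641 and the 4 intact arrays between 0.203 and 0.297.

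Some genes were higher in ruptured radicles at 25 h than at either end of that axis. Among the 307 genes with a 2-fold rise, 70 had every ruptured 25 h array above every array of 20 h and of 31 h, and 95 had every ruptured array below every 31 h array. The 307 were chosen for high ruptured arrays, which favours the first kind, and the share over all loci was not counted. XTH24, which cuts and rejoins xyloglucan chains, is of the first kind: it averaged 5.0 ± 0.45 at 20 h and 5.0 ± 0.20 at 31 h, and at 25 h 6.80 ± 0.39 in ruptured and 4.28 ± 0.07 in intact radicles. AGP2 averaged 5.89 ± 0.28 at 20 h and 6.28 ± 0.30 at 31 h, against 8.02 ± 0.33 in ruptured radicles at 25 h. ORS1 was high at 12 h (8.58 ± 0.10), low at 20 h (5.61 ± 0.30) and in intact radicles, and high again in ruptured radicles at 25 h. The beta-xylosidase XYL4, EXO and the EXORDIUM-like PHI-1 were picked for this pattern after their values were seen. XYL4 averaged 9.03 ± 0.16 in ruptured and 6.88 ± 0.03 in intact radicles, with 8.12 ± 0.20 at 20 h and 8.12 ± 0.24 at 31 h, so that intact radicles lay below both neighbours in time. EXO, a secreted protein of brassinosteroid-promoted growth, averaged 11.97 ± 0.16 in ruptured and 10.13 ± 0.30 in intact radicles, and PHI-1 10.94 ± 0.25 and 9.42 ± 0.12 in the same order. FLA9 and LTL1 were of the other kind: FLA9 went on to 8.41 ± 0.51 at 31 h and 10.22 ± 0.21 at 38 h with intact endosperm, and LTL1 to 9.28 ± 0.35 and 10.58 ± 0.16. Among the 123 genes with a 2-fold fall, 7 had every ruptured array below every array of 20 h and of 31 h. In 65 of them every ruptured array lay above every 31 h array.

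**Figure D3:**
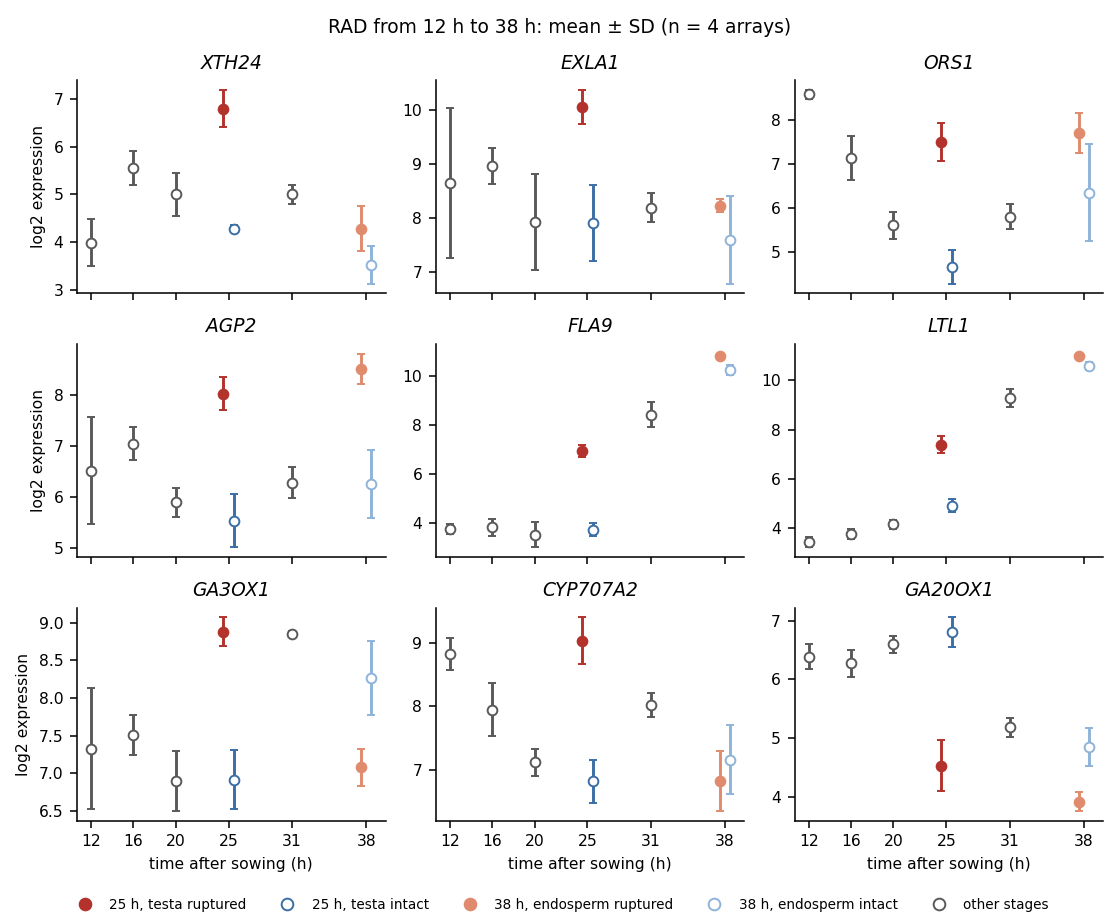
Log2 expression (mean ± SD, n = 4) of 9 genes in RAD from 12 to 38 h after sowing, with filled symbols for the ruptured classes of 25 h (testa) and 38 h (endosperm), open coloured symbols for the intact classes and open grey symbols for unsorted stages; each panel has its own vertical scale. XTH24 and EXLA1 peaked in ruptured radicles at 25 h, while FLA9 and LTL1 went on to higher values at 31 and 38 h.

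Expansins, which loosen the wall in acid, moved in opposite directions. Of 29 measured, 3 rose and 6 fell (10.3% and 20.7%, against 4.87% and 4.77% of all loci), with a list median of -0.02. The rises were 2 expansin-like A genes and EXPA6, and the falls were alpha-expansins. EXLA1 read 9.85, 9.77, 10.48 and 10.11 in ruptured and 8.87, 7.69, 7.81 and 7.21 in intact radicles (2.16 ± 0.38 SE, adjusted p = 1.04e-05), with intact replicate 1 closest to the ruptured arrays. EXLA2 read 7.63, 7.45, 8.05 and 8.01 in ruptured and 6.0, 5.74, 5.65 and 5.71 in intact radicles (2.01 ± 0.21 SE, adjusted p = 1.5e-12). EXPA6 averaged 5.40 ± 0.21 in ruptured and 4.03 ± 0.16 in intact radicles (1.37 ± 0.17 SE, adjusted p = 1.83e-10). The third expansin-like A gene, EXLA3, stayed below 4.03 on every array of both groups and its difference of 0.44 did not pass the test (adjusted p = 0.102).

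The falls were led by EXPA10, an alpha-expansin. It read 8.64, 8.22, 8.23 and 8.46 in ruptured and 9.70, 9.63, 10.07 and 10.34 in intact radicles (-1.55 ± 0.21 SE, adjusted p = 4.68e-09). EXPA1 averaged 9.93 ± 0.12 in ruptured and 11.27 ± 0.30 in intact radicles (-1.34 ± 0.35 SE, adjusted p = 0.00428). Neither pair of groups overlapped, and both genes were also lower at 31 h (7.23 and 9.08) than at 20 h (10.28 and 11.40). EXPA15 (-1.23) and EXPA8 (-1.0) fell as well, and EXPA3 and EXPA14 fell less. The endosperm expansin EXPA2 did not pass the test (-0.10, adjusted p = 0.924).

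XTHs rose without a fall. Of 33 measured, 12 rose (36.4%, against 4.87% of all loci) and none fell by the limma test, 11 of the 12 by 2-fold or more. The median was 0.15. At an unadjusted p under 0.05, 14 were higher and 1 lower. XTH24 read 6.24, 6.82, 7.05 and 7.09 in ruptured and 4.39, 4.25, 4.23 and 4.25 in intact radicles (2.52 ± 0.22 SE, adjusted p = 1.18e-16), and its intact arrays lay close together. XTH16 read 10.76, 10.76, 10.85 and 10.73 in ruptured and 8.80, 8.37, 8.41 and 8.39 in intact radicles (2.28 ± 0.28 SE, adjusted p = 2.93e-10). XTH33 averaged 5.89 ± 0.23 in ruptured and 3.79 ± 0.26 in intact radicles (2.1 ± 0.22 SE, adjusted p = 1.7e-12). XTH4 averaged 11.32 in ruptured and 10.03 in intact radicles (1.29 ± 0.27 SE, adjusted p = 0.000206), and XTH9 averaged 11.27 in ruptured and 9.84 in intact radicles (1.43 ± 0.38 SE, adjusted p = 0.00609). XTH18 rose by 1.49, and XTH8, XTH15, XTH17, XTH23, XTH25 and XTH27 rose by 0.77 to 1.46.

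Among extensins, proline-rich and arabinogalactan proteins, 14 of 47 rose (29.8%, against 4.87% of all loci), 10 of them 2-fold, with a median of 0.20. None fell, at an unadjusted p under 0.05 either. All but 1 of the 14 were arabinogalactan or fasciclin-like proteins, and the other was the leucine-rich extensin LRX3 (1.01). FLA2 averaged 9.31 ± 0.22 in ruptured and 7.29 ± 0.37 in intact radicles (2.03 ± 0.16 SE, adjusted p = 4.17e-18). AGP2 read 7.75, 7.71, 8.29 and 8.32 in ruptured and 6.28, 5.41, 5.36 and 5.07 in intact radicles (2.49 ± 0.26 SE, adjusted p = 5.35e-13). AGP4 (1.75), AGP18 (1.59), AGP12 (1.56) and AGP17 (1.35) also rose more than 2-fold.

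Among genes of polysaccharide synthesis, calls were rises. In the cellulose list, 9 of 15 rose and none fell, also at an unadjusted p under 0.05, none by as much as 2-fold, and the median was 0.53. The rising set held CESA1 (0.75), CESA3 (0.58) and CESA6 (0.93), the catalytic subunits of the primary wall complex, together with CESA2 (0.87) and CESA5 (0.79), which can stand in for CESA6. COB, a membrane-anchored protein that orients cellulose deposition (0.63), and CSI1, which links the complex to microtubules (0.53), rose as well. CESA6 read 9.17, 9.01, 8.98 and 9.20 in ruptured and 8.36, 8.08, 8.15 and 8.05 in intact radicles (0.93 ± 0.10 SE, adjusted p = 1.46e-11). Among 19 hemicellulose genes 6 rose, 2 of them by 2-fold, and none fell, with 10 higher and 0 lower at an unadjusted p under 0.05 (median 0.24): the mannan synthase CSLA9 by 1.22, the xyloglucan glucan synthase CSLC4 by 1.19, and the xyloglucan galactosyltransferase MUR3 by 0.76 led them. CSLC4 read 8.64, 8.70, 8.96 and 8.93 in ruptured and 7.64, 7.59, 7.75 and 7.49 in intact radicles (1.19 ± 0.21 SE, adjusted p = 9.69e-06).

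Of 23 wall receptors and RALF peptides 7 rose, none fell and 16 were not called, with the same counts at an unadjusted p under 0.05, and the median of 0.02 was near that of all loci. RALF peptides are secreted signals that bind receptor kinases of the FERONIA family at the wall. RALF22 read 7.43, 7.69, 7.73 and 7.70 in ruptured and 6.10, 6.42, 6.68 and 6.35 in intact radicles (1.25 ± 0.24 SE, adjusted p = 4.05e-05), and RALF33 rose by 0.79. The receptor THE1, which senses impaired cellulose synthesis, read 8.29, 8.18, 8.49 and 8.77 in ruptured and 7.55, 7.55, 7.46 and 7.20 in intact radicles (1.0 ± 0.20 SE, adjusted p = 0.000103). FERONIA itself (FER) differed by 0.41, with 9.59 ± 0.05 in ruptured and 9.18 ± 0.13 in intact radicles (adjusted p = 0.000388).

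The lists of genes that act on pectin or mannan were short, so a count of 0 there cannot be told from the shares over all loci. The 31 names written for the pectin methylesterase list gave 15 measured loci, and the 24 for the polygalacturonase list gave 10. Members of these families outside the lists were not counted. Among 15 pectin methylesterases and inhibitors, 2 rose and 1 fell (13.3% and 6.67%, against 4.87% and 4.77% of all loci). The large change was PME41, with 8.53, 8.48, 8.56 and 8.45 in ruptured and 6.80, 6.35, 6.20 and 6.21 in intact radicles (2.12 ± 0.22 SE, adjusted p = 5.68e-13). The count of rises was 1 without any of 7 single arrays, all but intact replicate 4. Of 10 polygalacturonases and pectate lyases 0 passed the limma test, and 1 was higher at an unadjusted p under 0.05 and passed in a fit of only the 2 groups. Of 6 endo-beta-mannanases 0 passed by limma, in the fit of only the 2 groups or at an unadjusted p under 0.05, MAN7 with 7.43 ± 0.22 in ruptured and 7.59 ± 0.11 in intact radicles.

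**Figure D4:**
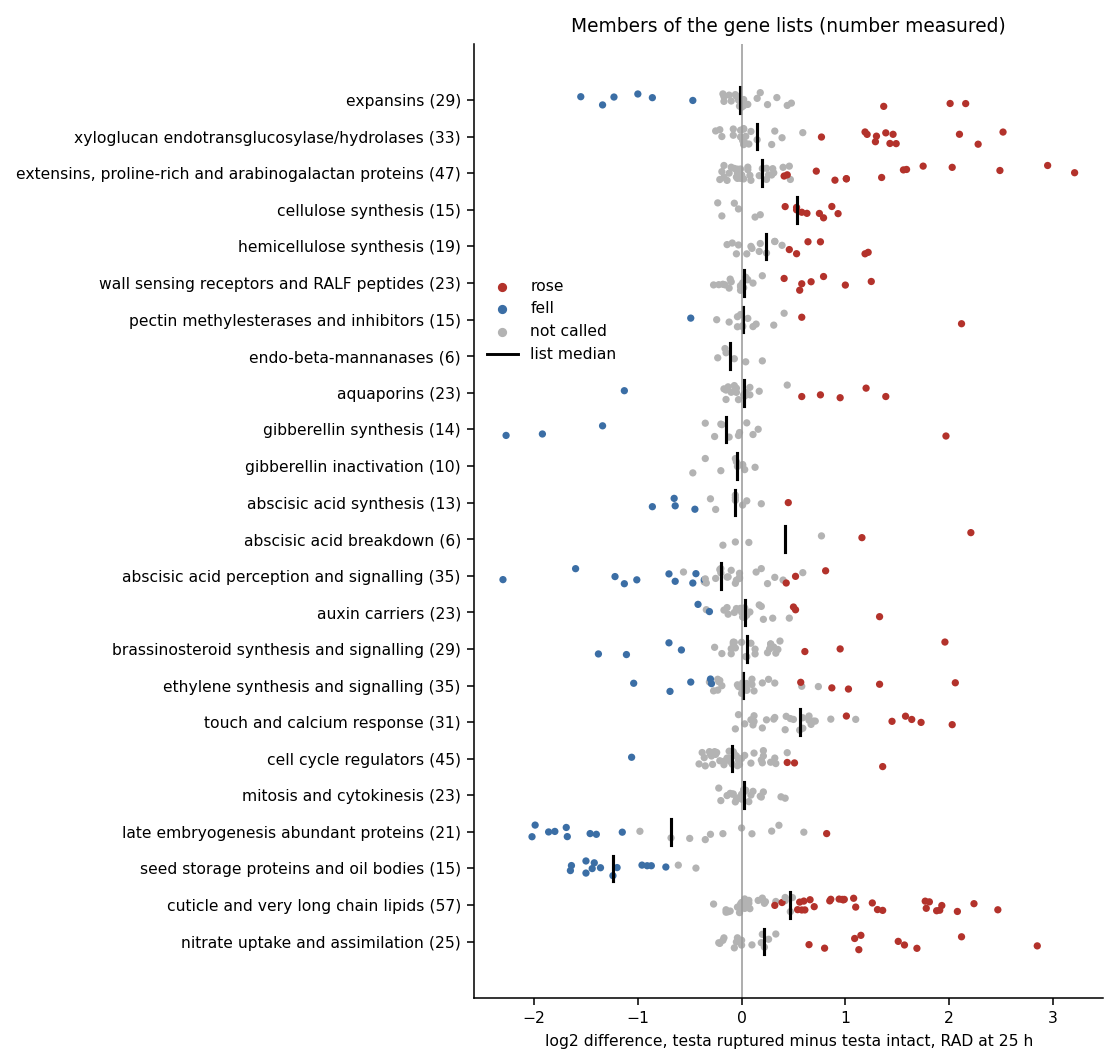
Log2 difference, ruptured minus intact testa, of every measured member of 24 gene lists in RAD at 25 h (red, rose; blue, fell; grey, not called; black bar, list median), with the number measured after each list name. XTHs, arabinogalactan proteins, cellulose synthesis, cuticle and nitrate genes lay to the right, and LEA and seed storage genes to the left.

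Water and ion transport gave mixed counts. Of 23 aquaporins 5 rose and 1 fell. The plasma membrane water channel PIP2A read 7.54, 7.77, 7.26 and 7.08 in ruptured and 6.38, 6.13, 6.05 and 6.29 in intact radicles (1.2 ± 0.18 SE, adjusted p = 2.31e-07), NIP5;1, a boric acid channel, rose by 1.39, and PIP1;4 by 0.95. TIP3;1, the seed tonoplast channel, differed by -1.13, which became -0.56 without intact replicate 3, the array that read 6.81 (adjusted p = 0.465); the call was also lost without ruptured replicate 1 or 3. Of 27 proton pumps and potassium carriers, 1 rose and 3 fell: the pump gene AHA11 rose by 0.77 and the potassium carriers KUP6 (-0.94), KUP8 and KUP4 fell. The main root pump AHA2 read 10.14 in ruptured and 9.65 in intact radicles, which did not pass the test (adjusted p = 0.0625), although its arrays did not overlap and it passed in 7 of the alternatives, among them a fit of only the 2 groups (adjusted p = 0.0118).

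In gibberellin synthesis the last enzyme and the enzyme before it moved apart. Gibberellin 20-oxidases make the precursor that gibberellin 3-oxidases turn into the active hormone, and active gibberellin represses genes of both families. Of 14 genes of the pathway 1 rose, GA3OX1, and 3 fell, all of them 20-oxidases. GA3OX1 read 8.78, 8.96, 8.69 and 9.12 in ruptured and 7.40, 7.05, 6.53 and 6.69 in intact radicles (1.97 ± 0.23 SE, adjusted p = 6.11e-11). GA20OX1 read 4.23, 5.19, 4.31 and 4.40 in ruptured and 6.49, 6.97, 7.04 and 6.72 in intact radicles (-2.27 ± 0.21 SE, adjusted p = 3.46e-15), GA20OX2 read 4.31, 4.75, 4.52 and 4.17 and 6.37, 6.57, 6.28 and 6.19 in the same order (-1.92 ± 0.32 SE, adjusted p = 2.79e-06), and GA20OX3 fell by 1.34. None of these 4 had overlapping groups. GA3OX2, the other 3-oxidase of germinating seed, stood at 9.49 ± 0.15 in ruptured and 9.68 ± 0.21 in intact radicles, and did not pass the test (adjusted p = 0.705).

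Of 10 genes of gibberellin inactivation, 0 passed the limma test and 2 were lower at an unadjusted p under 0.05, GA2OX2 among them (-0.47, adjusted p = 0.0908), which passed when arrays were weighted. Of 14 genes of perception and DELLA repression, RGL2, the DELLA protein that restrains germination, fell by 0.64, with 9.42, 9.40, 9.29 and 9.29 in ruptured and 10.04, 10.05, 10.02 and 9.84 in intact radicles (adjusted p = 0.00049), and the F-box gene SNE rose by 0.52. Of 7 GASA peptides, which respond to gibberellin, GASA4 rose, at 10.31, 10.35, 10.05 and 10.05 in ruptured and 9.45, 9.12, 8.98 and 8.69 in intact radicles (1.13 ± 0.30 SE, adjusted p = 0.00557), and GASA3 fell by 1.14. GASA6 read 5.12 in ruptured and 5.35 in intact radicles and did not pass (adjusted p = 0.885).

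ABA genes were lower in signalling and higher in breakdown. Of the 6 genes of ABA breakdown, the 8'-hydroxylases CYP707A2 and CYP707A1 rose and none fell (median 0.42). CYP707A2, the hydroxylase best known from imbibed seed, read 9.38, 8.56, 8.90 and 9.28 in ruptured and 7.21, 6.95, 6.41 and 6.71 in intact radicles (2.21 ± 0.27 SE, adjusted p = 1.57e-10). CYP707A1 read 5.41, 5.70, 5.13 and 5.29 in ruptured and 4.70, 3.68, 4.38 and 4.10 in intact radicles (1.16 ± 0.26 SE, adjusted p = 0.000602). Of 13 synthesis genes 1 rose and 4 fell, with ABA1, the zeaxanthin epoxidase, at 5.89 ± 0.21 in ruptured and 6.75 ± 0.27 in intact radicles (-0.86 ± 0.18 SE, adjusted p = 0.000197). NCED6, also counted among the endosperm markers, fell by 0.45 near the bottom of the scale, and its call was lost without ruptured or intact replicate 4 (adjusted p up to 0.117).

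In ABA perception and signalling, 10 of 35 genes fell (28.6%) and 3 rose (8.57%), with a median of -0.20. The falls included SOM, the transcription factors ABI3 (-0.64, 0.000853) and ABI5 (-0.70, 0.000327), given with their adjusted p, and AFP2, an ABI5 binding protein (-1.01). They also included clade A phosphatases, which hold ABA signalling off and are themselves induced by ABA. AHG1, the phosphatase that binds DOG1 in seeds, read 6.69, 6.91, 7.29 and 7.50 in ruptured and 8.36, 8.46, 9.40 and 8.59 in intact radicles (-1.60 ± 0.26 SE, adjusted p = 9.01e-07). The phosphatases HAI3 (-1.22) and HAI2 (-1.13) fell too. ABI5 read 6.95, 6.87, 6.80 and 6.77 in ruptured and 7.65, 7.35, 7.50 and 7.67 in intact radicles, without overlap. ABI4 was at 9.27 in ruptured and 9.30 in intact radicles and the dormancy gene DOG1 at 3.76 and 3.78 in the same order, and neither passed the test (adjusted p = 0.978 for ABI4 and 0.978 for DOG1). The kinase SNRK2.6 rose by 0.81, a call that was lost without any 1 of 3 arrays, ruptured replicates 3 and 4 and intact replicate 4 (adjusted p up to 0.0855).

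Auxin genes moved in both directions, and only PILS3 and SAUR72 of these lists by 2-fold. Of 27 synthesis and conjugation genes 3 rose, the flavin monooxygenase YUC8 (0.75 ± 0.15 SE, adjusted p = 9.49e-05), the aminotransferase TAR2 (0.72 ± 0.16 SE, adjusted p = 0.000408) and GH3.17 (0.85 ± 0.17 SE, adjusted p = 0.000134), and 1 fell. Of 23 carriers 3 rose and 2 fell, and PILS3, a carrier of the endoplasmic reticulum, read 9.61, 9.67, 9.81 and 9.89 in ruptured and 8.43, 8.40, 8.37 and 8.45 in intact radicles (1.33 ± 0.12 SE, adjusted p = 1.55e-16). The root efflux carrier PIN2 stood at 9.93 ± 0.21 in ruptured and 9.88 ± 0.21 in intact radicles and did not pass (adjusted p = 0.956). Aux/IAA repressors gave 3 up and 3 down of 28 (10.7% each), and response factors and receptors 2 and 2 of 24 (8.33% each). SAUR growth genes gave 2 up (3.64%) and 5 down (9.09%) of 55, against 4.87% and 4.77% of all loci. SAUR72 rose by 1.08 and SAUR8 fell by 0.96. In the carrier, Aux/IAA and response factor lists the counts moved between 0 and 4 when single arrays were left out.

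Other hormone lists also split by member. Brassinosteroid genes counted 3 up and 4 down of 29: the synthesis enzymes BR6OX2 (-1.38) and ROT3 (-1.11) fell while DWF4 rose (0.61). PAR1, a helix-loop-helix repressor of elongation in shade that the same list holds, read 6.87, 6.76, 7.49 and 6.51 in ruptured and 4.93, 5.06, 5.03 and 4.76 in intact radicles (1.96 ± 0.21 SE, adjusted p = 1.02e-12). Ethylene genes counted 5 up and 5 down of 35, with the AP2/B3 factors EDF1 (2.06 ± 0.25 SE, adjusted p = 1.71e-10) and EDF4 (1.33) and the ACC oxidase ACO5 (1.03) up and the response factor ERF72 down (-1.04 ± 0.11 SE, adjusted p = 4.83e-12). EIL1, a factor that switches on ethylene responses, fell by 0.69. Cytokinin genes counted 6 up and 4 down of 41, and the receptor gene AHK2 read 5.92, 5.89, 6.36 and 6.68 in ruptured and 4.84, 5.01, 4.84 and 4.86 in intact radicles (1.33 ± 0.17 SE, adjusted p = 2.25e-09). ARR2 rose by 0.94 and LOG7, which activates cytokinins, by 0.93. The cytokinin falls numbered 2 without ruptured replicate 4 or intact replicate 2 and 0 without intact replicate 4.

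Jasmonate genes counted 2 up and 2 down of 27, with LOX6 (1.19) and AOC3 (1.04), enzymes of synthesis, up. Of 12 karrikin and strigolactone genes 2 rose and none fell. BZS1 (B-box protein 20), a B-box zinc finger factor that acts in brassinosteroid, light and karrikin responses, read 6.62, 6.89, 6.69 and 6.56 in ruptured and 4.88, 5.27, 4.60 and 4.31 in intact radicles (1.93 ± 0.19 SE, adjusted p = 7.62e-14), and the F-box gene KUF1 rose by 1.09. Light regulators counted 6 up and 2 down of 38, with HYH (1.18) and PIF5 (1.04) among the rises.

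Transcription factors moved in both directions in equal number. Of 838 loci whose table entry names a transcription factor family, 46 rose and 46 fell, close to the share over all loci. Beside PAR1, EDF1 and BZS1, the rises included the zinc finger gene ZAT11 (2.15 ± 0.29 SE, adjusted p = 4.75e-09), BZIP61 (1.88 ± 0.15 SE, adjusted p = 2.1e-18), the CONSTANS-like gene COL5 (1.74), LBD37 (1.57), ZFP4 (1.49) and the homeodomain gene HAT1 (1.39). BZIP61 read 7.20, 6.88, 7.62 and 7.42 in ruptured and 5.54, 5.30, 5.64 and 5.13 in intact radicles, and ZFP4 read 5.15, 5.45, 5.42 and 6.02 and 4.12, 3.88, 3.96 and 4.13 in the same order, both without overlap. Beside SOM, falls were found for LBD40 (-1.61), LBD41 (-1.25), the membrane-bound NAC factor NTL8 (-1.05), which inhibits germination in salt, and LBD16, a lateral root regulator (-0.93 ± 0.15 SE, adjusted p = 1.2e-06).

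Touch and calcium genes leaned upward with only some passing the test. These genes are known for their quick response to touch and wounding in seedlings. Of 31 measured, 6 rose (19.4%, against 4.87% of all loci) and none fell, with a median of 0.56. At an unadjusted p under 0.05, 13 were higher and 0 lower. In 17 every ruptured array lay above every intact array, as in 6.7% of all loci. In a fit of only the 2 groups, where the spread of these genes at other stages does not enter, 19 passed. TCH3, a calmodulin-like gene, read 7.52, 7.98, 7.99 and 8.24 in ruptured and 6.45, 5.65, 5.62 and 5.91 in intact radicles (2.03 ± 0.37 SE, adjusted p = 1.81e-05). CML39, a calmodulin-like gene of seedling establishment, read 6.14, 6.63, 6.15 and 5.73 in ruptured and 4.66, 4.62, 4.23 and 4.59 in intact radicles (1.64 ± 0.24 SE, adjusted p = 1.17e-07). The ubiquitin ligase gene PUB22 rose by 1.58 and the calmodulin gene CAM2 by 1.45. WRKY53 rose by 1.73, but not without intact replicate 3 (adjusted p = 0.061).

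The seed programme was lower in ruptured radicles. Of 15 storage protein and oil body genes 13 fell and none rose (86.7%, against 4.77% of all loci), with a median of -1.24, and of 21 late embryogenesis abundant (LEA) genes 9 fell and 1 rose, with a median of -0.68. OLEO2, an oil body coat protein, read 5.89, 5.47, 5.74 and 5.41 in ruptured and 7.86, 6.74, 7.56 and 6.95 in intact radicles (-1.65 ± 0.30 SE, adjusted p = 1.59e-05), and OLEO1 fell by 1.64. The cruciferin CRU3 read 5.35, 4.96, 5.30 and 5.60 in ruptured and 6.51, 6.99, 7.63 and 6.09 in intact radicles (-1.50 ± 0.29 SE, adjusted p = 5.95e-05), and the 2S albumin SESA3 fell by 1.36. EM6 read 4.62, 4.38, 4.73 and 4.89 in ruptured and 7.01, 6.13, 6.87 and 6.05 in intact radicles (-1.86 ± 0.29 SE, adjusted p = 3.04e-07). The dehydrin RAB18 differed by -1.68, and by -1.16 without intact replicate 3, which read 8.08 where the other intact arrays read 5.82 to 6.16. The gene of the LEA list that rose was ERD14 (0.82). Its call was lost without any 1 of 4 arrays, ruptured replicates 2 and 3 and intact replicates 3 and 4 (adjusted p up to 0.0987). The 32 names written for that list gave 21 measured loci, and LEA genes outside it were not counted. Of 22 seed maturation factors, ABI3 fell and 1 rose. Of 24 genes of lipolysis and the glyoxylate cycle only the lipase SDP1 was called (-0.42 ± 0.11 SE, adjusted p = 0.00446). That is 4.17% lower, near the 4.77% of all loci. At an unadjusted p under 0.05, 0 of the 24 were higher and 5 lower.

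Few cell division genes passed the test, as did few loci in all (4.87% higher and 4.77% lower). Of 31 DNA replication genes 0 passed the limma test, with 2 lower at an unadjusted p under 0.05, and 0 in a fit of only the 2 groups. Of 23 genes of mitosis and cytokinesis 0 passed, with 2 higher at an unadjusted p under 0.05, and 1 in a fit of only the 2 groups. Of 45 cell cycle regulators, 3 rose (6.67%) and 1 fell (2.22%), led by inhibitors of cyclin-dependent kinases in both directions. These shares are near those over all loci. SMR4 read 7.69, 8.14, 8.25 and 8.27 in ruptured and 6.57, 6.92, 6.78 and 6.63 in intact radicles (1.36 ± 0.18 SE, adjusted p = 6e-09), and KRP4 read 6.02, 6.13, 6.19 and 5.81 and 6.94, 7.12, 7.09 and 7.27 in the same order (-1.06 ± 0.13 SE, adjusted p = 5.64e-10). The D cyclins CYCD1;1 (-0.05, adjusted p = 0.947) and CYCD3;1 (0.33, adjusted p = 0.147) did not pass. In the root meristem list 1 of 25 was called, PLT7, which fell by 0.81, and the stem cell regulator PLT1 averaged 5.74 ± 0.34 in ruptured and 5.64 ± 0.11 in intact radicles. Of 32 root epidermis and root hair genes 2 rose (6.25%) and 1 fell (3.12%), again near the shares over all loci. Of 46 regulators of organ growth 2 rose (4.35%), HAT1 and CUC3 (0.94), and 6 fell (13%), among them the growth factor gene GRF7 (-0.80).

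The next 4 lists were drawn up after the values were seen, so their counts describe these arrays and carry no weight as tests of a theme. Cuticle and very long chain lipid genes were the clearest of them, with 29 of 57 higher, 14 by 2-fold, and none lower, with 34 higher and 0 lower at an unadjusted p under 0.05 (median 0.47). LTL1, a GDSL lipase, read 7.57, 7.76, 7.18 and 7.04 in ruptured and 5.30, 4.69, 4.86 and 4.79 in intact radicles (2.47 ± 0.17 SE, adjusted p = 1.02e-21). CER1, an enzyme of wax alkane synthesis, read 6.48, 7.01, 6.16 and 6.36 in ruptured and 4.57, 4.17, 4.30 and 4.01 in intact radicles (2.24 ± 0.17 SE, adjusted p = 6.21e-20). KCS19 rose by 2.08, CER2 by 1.93, the cutin hydroxylase CYP86A2 by 1.88 and the cutin acyltransferase DCR by 1.36.

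These genes are also those of the shoot epidermis, and the marker list of cotyledon and shoot was read beside them. Of its 29 genes KCS6 (1.1), PDF1 (0.84) and FDH (0.56) rose and ATHB-8 fell (-0.71); the call of FDH was lost without any of 7 single arrays, all but intact replicate 4 (adjusted p up to 0.204). The summed signal was 7044 to 7456 in ruptured and 5467 to 5696 in intact radicles, against 14001 to 14680 in cotyledons at 31 h. Of the 29 markers, 12 in ruptured and 13 in intact radicles lay below 4.03, against 2 in cotyledons at 31 h. The part of cell composition in the cuticle counts was not tested.

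Nitrate uptake and assimilation counted 10 of 25 higher and none lower, 8 of the 10 by 2-fold, with 11 higher and 0 lower at an unadjusted p under 0.05 (median 0.22). With NIA2 rose the other nitrate reductase, NIA1, at 11.57, 11.09, 11.20 and 11.77 in ruptured and 9.94, 9.56, 9.72 and 9.65 in intact radicles (1.69 ± 0.30 SE, adjusted p = 9.93e-06), and the nitrite reductase NIR1, at 9.99, 9.62, 9.73 and 10.25 and 8.40, 7.72, 6.95 and 8.06 in the same order (2.12 ± 0.32 SE, adjusted p = 1.51e-07). The transporter partner NRT3.1 rose by 1.51 and the nitrate-induced repressor LBD37 by 1.57. Of 31 invertase and sugar transport genes, 3 rose and 3 fell: next to ATBFRUCT1 the vacuolar invertase ATBETAFRUCT4 rose by 2.27, while the sucrose carrier SUC2 read 7.40, 7.50, 7.86 and 7.46 in ruptured and 8.64, 8.80, 8.83 and 8.88 in intact radicles (-1.23 ± 0.19 SE, adjusted p = 3.28e-07). Of 25 wall peroxidases and oxidases 4 rose and none fell, all 4 of the SKU5 family, with sks9 at 2.5 and SKU5, which guides directional root growth, at 1.36 ± 0.19 SE, adjusted p = 1.33e-08.

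Other comparisons show where the radicle differs. MCE at 25 h, from seeds sorted the same way, had 17.9% of loci called at testa rupture, 7.79% higher and 10.1% lower. Of the 307 genes that rose 2-fold in RAD, 232 (75.6%) also rose in MCE, none fell there and 75 were not called. Of the 123 that fell 2-fold, 77 fell in MCE, 2 rose and 44 were not called. The 177 genes that rose 2-fold in both parts were 57.7% of the RAD list and 29.4% of the MCE list, which held 2.83% of all loci. The direct test of the difference between the parts called 1166 loci (5.47%), 559 with the larger value in RAD (2.62%) and 607 with the smaller (2.85%), and 771 without intact replicate 1 of MCE, an array described as redone.

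Several wall genes that rose in both parts rose less in RAD. Of 33 XTHs, 9 differed with the smaller value in RAD and none with the larger. XTH24 differed by -2.66 ± 0.31 (SE, adjusted p = 5.48e-11), with a rise of 2.52 in RAD and 5.19 in MCE. EXLA2 differed by -1.89 (adjusted p = 1.82e-06), while for EXLA1 the difference of -1.54 did not pass (adjusted p = 0.0817) except without MCE intact replicate 3 or RAD intact replicate 4. AGP21 differed by -2.04 (adjusted p = 6.52e-05) and sks9 by -3.05 (adjusted p = 6.09e-12). The most negative differences belonged to genes that rose in MCE and were not called in RAD, though GASA1 passed there in a fit of only the 2 groups (adjusted p = 0.0223): the locus AT2G41730 (-4.87), the sulfotransferase SOT12 (-4.47), AT5G44020 (-4.37), GASA1 (-4.09), AT2G30930 (-4.05) and the peroxidase PRX71 (-4.01). PRX71 read 3.06, 3.37, 3.22 and 3.35 in ruptured and 3.24, 3.22, 3.06 and 3.14 in intact radicles, against a rise of 4.09 in MCE.

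In the other direction, the largest differences were those of single genes. The list of organ growth regulators had 2 members with the larger value in RAD and 3 with the smaller. The invertase and sugar transport list, drawn up after the values were seen, had 2 and 5. ORS1 differed by 2.31 ± 0.50 (SE, adjusted p = 0.000725), with 2.84 in RAD and 0.53 in MCE. ATBFRUCT1 differed by 2.23 (adjusted p = 3.59e-08), PAR1 by 2.03 (1.14e-07), LTL1 by 2.33 (7.29e-13), RCI2B, a small membrane protein, by 2.25 (2.19e-16) and the locus AT5G62340 by 2.29 (1.39e-07). Of the 57 cuticle genes 13 had the larger value in RAD and 3 the smaller. That list was drawn up after the RAD values were seen, so the count is descriptive only. GA20OX1 differed by -1.53 (adjusted p = 0.000129), with -2.27 in RAD and -0.74 in MCE, where it averaged 3.87 ± 0.12 in ruptured and 4.61 ± 0.33 in intact seeds; the ruptured mean was thus below 4.03.

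**Figure D5:**
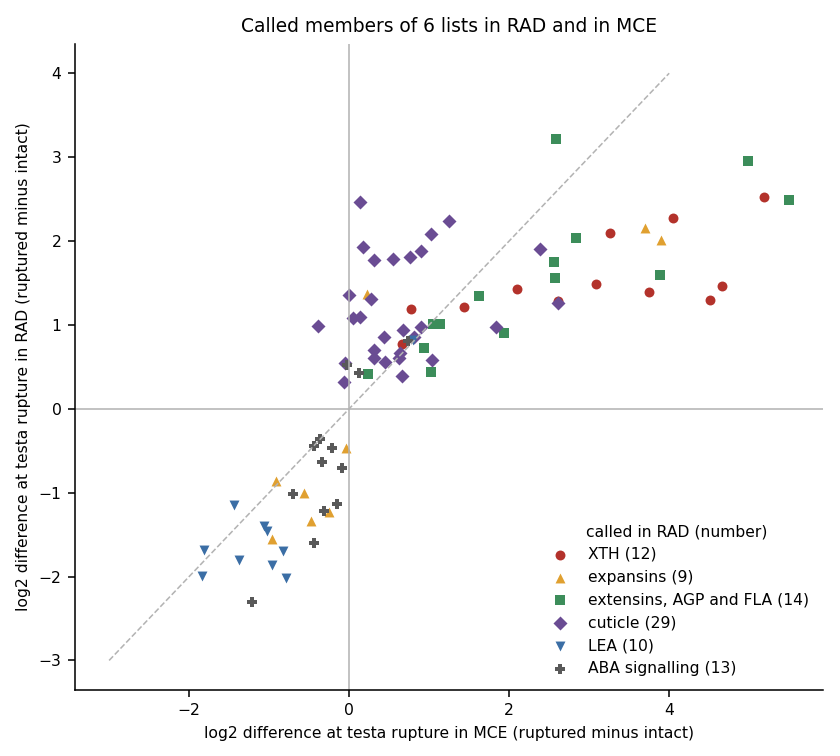
Log2 difference at testa rupture in RAD (vertical) against that in MCE (horizontal) for the members of 6 lists that were called in RAD; the dashed line marks equal differences. Most XTHs and arabinogalactan proteins lay below the line, with smaller rises in RAD, and most cuticle genes above it, with larger rises in RAD. Taking only members called in RAD favours large changes in RAD. The cuticle list was also drawn up after the values were seen, so its place above the line is no test.

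Rupture of the endosperm at 38 h, the next sorting of RAD, shared less with testa rupture. It called 9.73% of loci, 5.99% higher and 3.74% lower. Of the 307 genes with a 2-fold rise at testa rupture, 91 (29.6%) rose at endosperm rupture, 9 fell and 207 were not called, and of the 123 that fell, 22 (17.9%) fell again and 4 rose. The direct test of the difference called 1594 loci (7.48%), 657 with the larger (3.08%) and 937 with the smaller value (4.4%) at testa rupture. Opposite directions were found for GA3OX1, which rose by 1.97 at testa rupture and fell by 1.19 at endosperm rupture, a difference of 3.15 ± 0.33 (SE, adjusted p = 6.59e-13). At 38 h it averaged 7.08 ± 0.25 with ruptured and 8.27 ± 0.49 with intact endosperm. The locus AT4G02170 likewise rose by 2.36 and then fell by 0.98, a difference of 3.33 (adjusted p = 1.48e-10).

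Larger values at testa rupture were also found for CYP707A2 (2.55), NIA2 (2.83), NIR1 (2.64) and FLA9 (2.63), and for 18 of the 57 cuticle genes. The cuticle list was drawn up after the testa rupture values were seen, so its count is descriptive only. Smaller values were found for genes that rose at endosperm rupture and not at testa rupture, AT5G64100 (-4.36), AT2G47550 (-3.53), AT5G40690 (-3.31), AT4G37710 (-3.30), AT5G17820 (-3.28) and the dehydrin LTI30 (-3.27). LTI30 read 4.41, 4.05, 3.95 and 4.03 in ruptured and 3.61, 3.77, 6.62 and 3.65 in intact radicles at 25 h, with 1 intact array far above the rest. AGP2 rose at both ruptures, by 2.49 at testa rupture and 2.25 at endosperm rupture, and its difference of 0.24 did not pass (adjusted p = 0.878). The DNA replication list, with no call at testa rupture, had 11 of 31 members lower at endosperm rupture, and 2 members differed between the ruptures.

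Markers of other seed parts were read beside these results. Of the 16 endosperm markers 4 fell and none rose by the limma test. NCED6 is described above, and ICE1 (-0.52), GLYI8 (-1.22) and the locus AT1G27461 (-1.70) were no lower in RAD than in MCE. Of 20 seed coat markers BXL1 (1.75) and CESA5 rose, with a summed signal of 573 to 642 in ruptured and 463 to 543 in intact radicles, against 4286 to 6697 in ruptured and 1735 to 5454 in intact MCE. Of the 16 endosperm markers, 8 lay below 4.03 in ruptured and 5 in intact radicles, against 4 in ruptured and 5 in intact MCE, PMEI6 and TSA1 in all of them. The part of adhering endosperm or testa in the falls and rises above was not tested.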

How the data were processed

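The authors deposited log2 expression values, 1 per locus, of 21313 loci on 111 Affymetrix arrays in 28 groups, made with RMA in affy per the submitters' processing notes. The labelling kit was given 100 ng of total RNA per the labels' protocols. Which probe-to-locus definition and build applied is not given in the sources used here. No value was renormalized. Locus names came from the RefSeq table of TAIR10.1, which held 21205 of the loci.

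All arrays entered 1 limma 3.58.1 fit (R 4.3.3) with a mean per group and 83 residual degrees of freedom. Contrasts were ruptured minus intact in RAD, the same in MCE, endosperm rupture in RAD, 31 h minus 20 h, and the differences between them. P-values were adjusted by the Benjamini-Hochberg method over all loci, with 0.05 as threshold. The fit was tested on simulated data.

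The 12 largest rises and 12 largest falls named were taken among 2-fold calls whose arrays did not overlap. Also named were called members of each list and the most different genes in the contrasts between comparisons. Groups, members and lists were chosen with earlier results of these data known, and 4 lists after the values were seen. Alternatives were array weights, a filter at 4.03, other normalizations, fits of only the compared groups, a replicate block and leaving out single arrays. The position score was computed in Python 3.11.15.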

Additional observations from a re-analysis of the deposited data

Results flagged for a closer look

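Of 372 groups of 4 arrays tested, 31 held 1 array whose distance from the nearest of the others exceeded 0.829 of the group's range, where chance flags about 1 group in 20. Among the intact radicles, replicate 1 was the array in question 9 times. It was high for the position score (0.30, others 0.20 to 0.22), XTH24 (4.39, others 4.23 to 4.25), sks9 (4.38, others 3.6 to 3.69), AT2G21820 (7.27, others 6.54 to 6.63), XTH16 (8.80, others 8.37 to 8.41), GA3OX2 (9.99, others 9.55 to 9.61), RCI2B (4.42, others 4.17 to 4.20) and AGP18 (6.73, others 6.11 to 6.20), and low for BR6OX2 (6.06, others 6.70 to 6.79). Intact replicate 3 was high for RAB18 (8.08, others 5.82 to 6.16), LTI30 (6.62, others 3.61 to 3.77) and OLEO1 (7.22, others 6.61 to 6.70) and low for CML39 (4.23, others 4.59 to 4.66). Intact replicate 2 was low for AFP2 (8.14) and ABI4 (8.93) and high for AHK2 (5.01) and AT5G44020 (3.79). Intact replicate 4 was low for RGL2 (9.84, others 10.02 to 10.05).

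Among the ruptured radicles replicate 4 was the array in question 5 times and the others 2 or 3 times each. Replicate 1 was high for LEA (5.85) and low for RALF22 (7.43) and EXO (11.72). Replicate 2 was low for OCT3 (8.04) and AT3G17520 (6.79) and high for AT2G39210 (7.89). Replicate 3 was high for ARR2 (6.22) and low for LBD40 (7.57). Replicate 4 was high for AT3G49220 (6.79), FER (9.67) and AT2G30930 (3.77) and low for EXPA15 (7.60) and AFP2 (6.96).

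The response to testa rupture differed between RAD and MCE for 1166 loci, and that of RAD differed between testa and endosperm rupture for 1594 loci, both by the limma test of the difference itself. Between RAD and MCE, larger log2 values in RAD were found for LTL1 (2.33), ORS1 (2.31), AT5G62340 (2.29), RCI2B (2.25), ATBFRUCT1 (2.23) and PAR1 (2.03). Smaller ones were found for GA20OX1 (-1.53), EXLA2 (-1.89), AGP21 (-2.04), XTH24 (-2.66), sks9 (-3.05), PRX71 (-4.01), AT2G30930 (-4.05), GASA1 (-4.09), AT5G44020 (-4.37), SOT12 (-4.47) and AT2G41730 (-4.87). Between testa and endosperm rupture, larger values at testa rupture were found for AT4G02170 (3.33), GA3OX1 (3.15), NIA2 (2.83), NIR1 (2.64), FLA9 (2.63) and CYP707A2 (2.55). Smaller ones were found for LTI30 (-3.27), AT5G17820 (-3.28), AT4G37710 (-3.30), AT5G40690 (-3.31), AT2G47550 (-3.53) and AT5G64100 (-4.36).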

How the results depend on the processing

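The 2054 loci called at testa rupture numbered 1679 to 2044 with 1 array of the compared groups left out, 3331 with array weights and 430 with a 2-fold minimum. The share of calls that rose was 50.5%; it was 45.9% when arrays were weighted and 58.6% with the scaling added. The 1166 loci that differed between RAD and MCE numbered 771 to 1255 with 1 array left out, the lowest without intact replicate 1 of MCE, and 461 with the 2-fold minimum. The 1594 loci that differed between testa and endosperm rupture numbered 1353 to 1663 with 1 array left out, 2575 with array weights and 655 with the 2-fold minimum. The difference in position score was 0.358 to 0.393 with 1 array left out and 0.121 on an axis from 16 h to 38 h with intact endosperm. With the replicate number as a block the score difference was again 0.371, but 16 sign changes allow no p under 0.125. The replicate block gave 2223 loci at testa rupture, 1267 between the parts and 1695 between the ruptures. The deviations of same-numbered ruptured and intact radicles correlated at 0.347, -0.00517, 0.0609 and -0.0301, so the numbers did not pair the samples throughout. The value of replicate 1 was the largest of all pairings, the next being 0.217 for ruptured replicate 4 with intact replicate 2. Whether the replicates numbered 1 were handled together was not tested. Of 185 genes given in the text, 160 were called, 154 of them in every alternative other than the 2-fold minimum. The other 6 lost the call without single arrays, as given beside TIP3;1, NCED6, SNRK2.6, WRKY53, ERD14 and FDH, and 5 of the 25 not called passed in some alternative. No gene given in the text reversed its direction with a call in any alternative run, and neither did the score. For lists only the size of each count was compared, so a reversed balance of rises and falls was not looked for. The cause of these shifts was not tested. The number of arrays limits the precision.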
